A study of Mus musculus with 7 samples.

Results

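Immunoglobulin light chain variable segments were examined in RNA-sequencing libraries of splenic CD4+CD25+ cells from young and aged mice. A segment was taken as a member when the deposited table gave its gene type as an immunoglobulin V gene and its symbol began with Igkv or Iglv, which gave 103 of the 25469 genes with a read in at least 1 library. Of these, 100 were kappa (Igkv) segments on chromosome 6 and 3 were lambda (Iglv) segments on chromosome 16. Cells were isolated with magnetic beads from male C57BL/6 mice aged 18 months (aged, 3 libraries) or 8 weeks (young, 4 libraries), and no treatment or engineered allele was named for either age. The sample labels call the libraries biological replicates, and the number of animals behind each is not given in the sources used here. The study's methods give a slightly older age for the young mice than the labels. Counting intervals below cover counting error only, because the amplified cDNA carried no molecular identifiers.

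Antibodies are built from 2 heavy and 2 light chains, and a light chain is either kappa or lambda. In a developing B cell the RAG recombinase joins 1 V segment to 1 J segment, and the joined exon is spliced to the constant gene, Igkc for kappa or an Iglc gene for lambda. Light chain transcripts are made by B cells and, at far higher levels per cell, by plasma cells, whereas T cells assemble T cell receptor genes. Each B cell as a rule keeps 1 light chain, so the share of reads on a segment follows both how many B-lineage cells use it and how much light chain RNA each of them holds. In bulk RNA more cells of a kind and more RNA per cell cannot be told apart.

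The germline stretches that tell the leading segments apart are shown first, because the results turn on which segment was read. Each is the last 90 bases of the last exon, 5′ to 3′ on the coding strand, from the GENCODE M21 transcripts on GRCm38, the assembly that the submitters' processing notes call mm10. Capitals run from the codon of the conserved second cysteine to the end of the segment. That cysteine closes framework 3, and the bases after it are the germline part of CDR3, a loop that contacts antigen. The segments that took the most reads in an aged library were the following.
Igkv8-30 (chr6:70117061-70117150, minus strand): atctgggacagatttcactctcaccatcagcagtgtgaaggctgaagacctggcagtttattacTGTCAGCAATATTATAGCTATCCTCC
Igkv5-39 (chr6:69900424-69900513, minus strand): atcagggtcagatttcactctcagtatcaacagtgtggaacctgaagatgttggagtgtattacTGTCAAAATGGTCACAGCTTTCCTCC
Igkv9-124 (chr6:67942074-67942163, minus strand): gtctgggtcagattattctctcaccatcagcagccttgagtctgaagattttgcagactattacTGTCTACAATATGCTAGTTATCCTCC
The segments that took the most reads in a young library were the following.
Igkv1-110 (chr6:68271178-68271267, plus strand): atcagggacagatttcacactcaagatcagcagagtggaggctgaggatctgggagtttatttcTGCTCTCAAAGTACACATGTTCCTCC
Igkv1-135 (chr6:67610419-67610508, plus strand): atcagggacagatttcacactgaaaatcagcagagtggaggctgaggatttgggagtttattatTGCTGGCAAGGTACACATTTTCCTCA
Iglv1 (chr16:19085017-19085106, minus strand): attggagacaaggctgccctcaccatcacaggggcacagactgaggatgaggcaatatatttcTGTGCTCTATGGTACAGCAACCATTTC
Igkv1-117 (chr6:68121738-68121827, plus strand): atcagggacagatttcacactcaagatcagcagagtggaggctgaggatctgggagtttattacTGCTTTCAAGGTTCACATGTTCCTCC
The 10 segments whose read level differed between ages by the test given further on were the following, the last 2 being lower in aged libraries.
Igkv4-57-1 (chr6:69544359-69544448, minus strand): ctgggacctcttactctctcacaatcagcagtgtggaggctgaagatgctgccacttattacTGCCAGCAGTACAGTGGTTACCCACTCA
Igkv10-94 (chr6:68704508-68704597, minus strand): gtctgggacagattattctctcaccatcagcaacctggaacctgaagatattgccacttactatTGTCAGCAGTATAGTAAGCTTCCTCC
Igkv3-2 (chr6:70698978-70699067, plus strand): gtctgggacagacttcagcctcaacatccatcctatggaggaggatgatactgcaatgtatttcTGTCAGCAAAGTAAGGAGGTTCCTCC
Igkv3-4 (chr6:70672288-70672377, plus strand): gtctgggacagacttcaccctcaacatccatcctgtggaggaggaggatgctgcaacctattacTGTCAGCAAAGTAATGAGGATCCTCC
Igkv4-55 (chr6:69607275-69607364, minus strand): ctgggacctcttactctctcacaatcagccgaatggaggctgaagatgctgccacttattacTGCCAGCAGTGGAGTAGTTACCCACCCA
Igkv3-12 (chr6:70518760-70518849, plus strand): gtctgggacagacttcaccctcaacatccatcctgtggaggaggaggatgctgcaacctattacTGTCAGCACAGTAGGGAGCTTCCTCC
Igkv6-25 (chr6:70215868-70215957, plus strand): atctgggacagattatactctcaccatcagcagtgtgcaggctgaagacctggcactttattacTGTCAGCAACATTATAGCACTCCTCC
Igkv3-7 (chr6:70607947-70608036, plus strand): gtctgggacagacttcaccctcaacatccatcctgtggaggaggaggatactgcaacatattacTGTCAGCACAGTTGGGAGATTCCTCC
Igkv7-33 (chr6:70058632-70058721, minus strand): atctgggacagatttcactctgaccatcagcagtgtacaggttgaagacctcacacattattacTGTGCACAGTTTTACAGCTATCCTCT
Iglv2 (chr16:19260401-19260490, minus strand): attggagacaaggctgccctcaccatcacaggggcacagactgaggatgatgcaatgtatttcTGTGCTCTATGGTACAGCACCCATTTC
Many segments are near copies. Of the 103 segments, 78 shared at least one stretch of 50 bases with another light chain V transcript, and in 16 over 50% of such stretches were shared. Over their last 280 bases, Igkv1-117 and Igkv1-110 were 96.8% identical, Iglv1 and Iglv2 97.5%, and Igkv10-94 and Igkv10-95 97.1%. How reads that align to several places were treated is not given in the sources used here, so levels of near copies are uncertain. Igkv5-39 and Igkv14-126 shared no stretch of 50 bases with another segment.

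Gene counts per library were 10734234 to 13649310, with 89 of the 103 segments passing the filter on low counts. The 14 others held at most 33 reads in any library, and 91 segments were read in every library. The Treg markers were present in every library. Foxp3, the transcription factor that defines regulatory T cells, was at 447 to 622 CPM in aged and 394 to 518 CPM in young libraries, and 1 of the 9 Treg markers tested, Cd3e, was higher in aged libraries. B cell and plasma cell markers were read in every library too. For 14 B cell genes without Ighm and Ighd the summed level was 1335 to 2446 CPM in aged and 1942 to 3050 CPM in young libraries, and 2 of 14, Fcrla and Spib, were lower in aged libraries. With Ighm and Ighd, 16 genes, the summed level was 8309 to 13298 CPM in aged and 6290 to 15702 CPM in young libraries. Ighm and Ighd had log2 fold changes of 0.47 and 0.12 and did not pass the test (edgeR adjusted p = 0.542 and 0.834). For 12 plasma cell genes it was 1181 to 1769 CPM in aged and 680 to 2530 CPM in young libraries, and 2 of 12, Prdm1 and Creld2, were higher in aged libraries. No gene of either list was at 0 in every library, and among all genes tested 9.80% were called higher and 6.94% lower. Without young replicate 2, described next, 7 of the 12 plasma cell genes and 2 of the 9 Treg markers were called higher, where 9.11% of all genes were. In that fit 1 of the 16 B cell genes, Ighm, was called higher (log2 fold change 1.14, edgeR adjusted p = 0.0115) and 2 were called lower. Bulk RNA does not tell which cells a listed gene was read from. Irf4, one of the 12 plasma cell genes, was measured as protein in Tregs by the paper. The part of B cells and plasma cells in the results below was not tested.

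First, the amount of light chain V reads was compared between ages. Aged replicates 1 to 3 held 25460, 33248 and 26680 light chain V reads, or 2224, 3348 and 2497 CPM. Young replicates 1 to 4 held 9067, 67453, 15872 and 15493 reads, or 792, 4727, 1253 and 1110 CPM. The aged libraries lay above 3 of the young libraries, and young replicate 2 lay above every aged library. On the log2 CPM scale the aged mean was 11.4 ± 0.304 (SD, n = 3) and the young mean 10.6 ± 1.13 (SD, n = 4), a difference of 0.81 (exact two-sided permutation test, p = 0.286). This difference was larger than the aged SD and smaller than the young SD. An exact permutation test of 3 against 4 libraries cannot go below p = 0.0571. Without young replicate 2 the groups did not overlap and the difference was 1.36 (exact permutation test, p = 0.1, the smallest that 3 against 3 allows). Without young replicate 1 the groups overlapped and it was 0.50.

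Young replicate 2 stood apart in other B-lineage genes as well. Jchain, which links antibody units in plasma cells, was at 1725 CPM there and at 179 to 343 CPM in the other young libraries. Igkc was at 5489 CPM there and at 1087 to 1415 CPM in the other young libraries. Its sum over the 14 B cell genes, 1942 CPM, was the lowest among the young libraries. Young replicate 2 also stood apart outside the B lineage. The 9 Treg markers summed to 4567 CPM there and to 3043 to 3616 CPM in the other young libraries. The 4 erythroid genes summed to 9519 CPM there and to 43920 to 86566 CPM in the other young libraries. Leaving it out therefore changes more than B-lineage reads. Heavy chain V segments moved with the light chains in every library: the ratio of light to heavy chain V reads was 1.47 to 2.05 in aged and 1.59 to 1.77 in young libraries. Several results on read levels are therefore also given without young replicate 2, while shares within a library do not depend on the total.

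**Figure D1:**
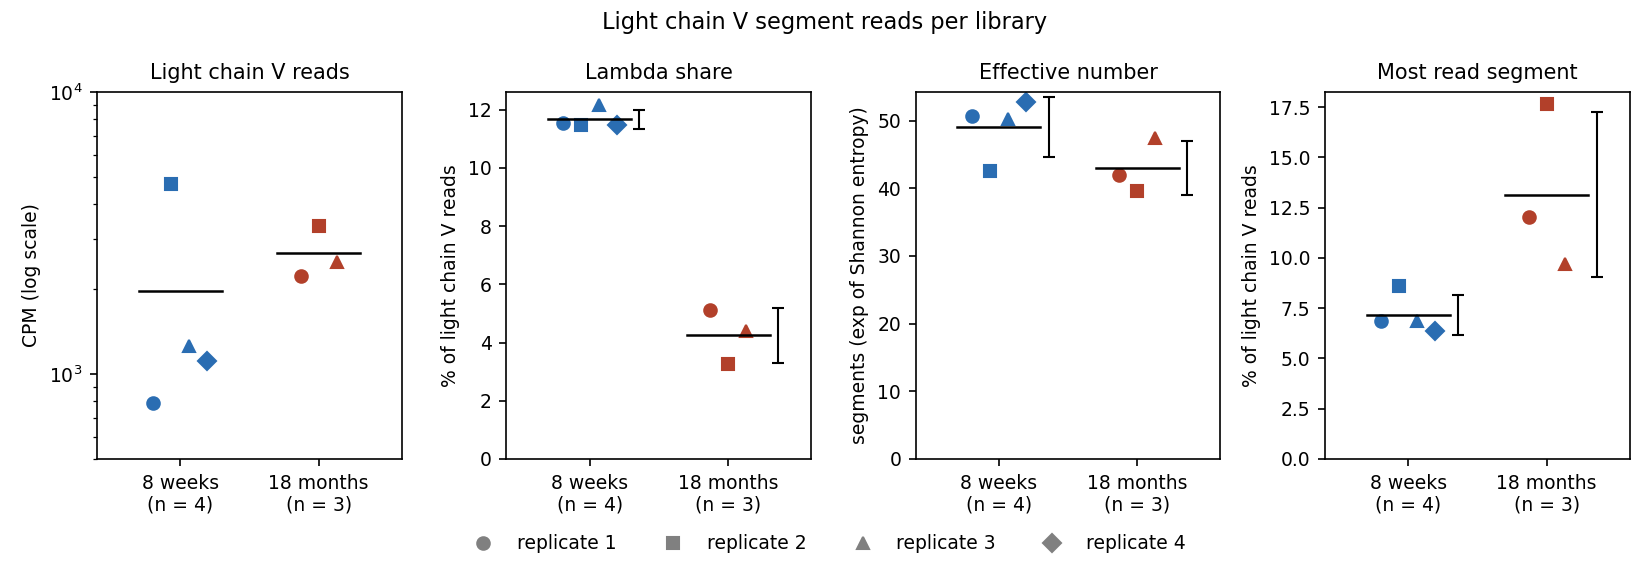
Light chain V reads in CPM (log scale), lambda share in percent, effective number of segments and share of the most read segment in percent, for each library of 8-week and 18-month mice. Points are libraries with the replicate number as shape, horizontal lines are means and the bars of the right-hand panels are SD (n = 4 and n = 3). The lambda share was 3.25 to 5.10% in aged and 11.5 to 12.2% in young libraries, and the total was highest in young replicate 2.

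Lambda segments took a smaller share of the light chain V reads in aged libraries. Lambda reads were 5.10% of light chain V reads in aged replicate 1 (95% Wilson interval, 4.84 to 5.38%), 3.25% in replicate 2 (3.06 to 3.44%) and 4.39% in replicate 3 (4.15 to 4.64%). The young libraries stood at 11.5% (10.9 to 12.2%), 11.5% (11.2 to 11.7%), 12.2% (11.7 to 12.7%) and 11.5% (11 to 12%). The groups did not overlap. The means were 4.25 ± 0.935% (SD, n = 3) in aged and 11.7 ± 0.332% (SD, n = 4) in young libraries, a difference of 7.42 percentage points (exact two-sided permutation test, p = 0.0571, the smallest that 3 against 4 libraries allows). By V segments, young replicate 2 had the lambda share of the other young libraries. The constant genes did not overlap either, with lambda constant genes at 2.63 to 3.86% of light chain constant reads in aged and 10.6 to 16.5% in young libraries, where young replicate 2 was the lowest and the other 3 were at 14.5 to 16.5%.

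The 3 lambda segments contributed unequally to this. Iglv1, the most used mouse lambda segment, took 4.12, 2.31 and 2.74% of light chain V reads in aged and 6.33, 7.06, 6.84 and 6.21% in young libraries. Iglv2 took 0.365, 0.352 and 0.427% in aged and 2.91, 3.56, 3.48 and 2.81% in young libraries, so that its mean share was 8.37-fold higher in young libraries. For both segments every aged share lay below every young share. Iglv3, which is far less alike in sequence (51.0% identity to Iglv1 over the last 280 bases), took 0.621, 0.584 and 1.22% in aged and 2.31, 0.866, 1.84 and 2.45% in young libraries, where the groups overlapped through aged replicate 3 and young replicate 2.

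On the level scale Iglv2 was at 8.13, 11.8 and 10.7 CPM in aged and 23.1, 168, 43.7 and 31.3 CPM in young libraries. Its level fell with age (log2 fold change -2.71 ± 0.71 (SE), edgeR adjusted p = 0.0347), while Iglv1 (-0.77 ± 0.61) and Iglv3 (-0.36 ± 0.33) did not pass the test (adjusted p = 0.424 and 0.481). With young replicate 2 left out, Iglv2 had a log2 fold change of -1.68 (adjusted p = 0.00635) and Iglv1 one of 0.21 (adjusted p = 0.508). The Iglv2 call was lost when any one aged library or young replicate 3 was left out, with adjusted p up to 0.107. The lambda constant genes Iglc1, Iglc2 and Iglc3 had log2 fold changes of -0.64, -0.91 and -0.67 and did not pass the test (adjusted p = 0.217 to 0.39). With young replicate 2 left out these were 0.032, -0.46 and -0.27 (edgeR adjusted p = 0.931, 0.438 and 0.5), and Iglc1 was then at a mean of 88.6 CPM in aged and 86.6 CPM in young libraries. Igkc had a log2 fold change of 1.34 and did not pass it either (adjusted p = 0.147), while without young replicate 2 it passed as higher in aged libraries (2.20 ± 0.29 (SE), adjusted p = 0.00377). Of the 10 tested constant and joining genes, 1 was called, Iglj1 (log2 fold change -3.0, adjusted p = 0.0248), where 16.7% of all genes were called.

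Next, the reads were divided among segments to see whether the same segments led in each library. The leading segment differed in every library. In the aged libraries it was Igkv8-30 with 12% of light chain V reads (95% Wilson interval, 11.6 to 12.4%) in replicate 1, Igkv5-39 with 17.7% (17.3 to 18.1%) in replicate 2 and Igkv9-124 with 9.69% (9.34 to 10.1%) in replicate 3. In the young libraries it was Igkv1-110 with 6.87% (6.37 to 7.41%), Igkv1-135 with 8.62% (8.41 to 8.83%), Iglv1 with 6.84% (6.45 to 7.24%) and Igkv1-117 with 6.36% (5.98 to 6.75%). Every aged leader took a larger share than any young leader. The means were 13.1 ± 4.10% (SD, n = 3) and 7.17 ± 0.992% (SD, n = 4), a difference of 5.96 percentage points (exact two-sided permutation test, p = 0.0571). Without aged replicate 2 the difference was 3.69 percentage points. Once the leading segment of each library was left out, the share of the next segment was 6.58 to 8.81% in aged and 6.77 to 8.28% in young libraries, and the groups overlapped.

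Each aged leader had its highest share in the library it led, and the shares of the young leaders were close to each other in the young libraries. Igkv8-30 took 12, 1.38 and 1.2% in the aged libraries and 1.85 to 2.66% in the young libraries. Igkv5-39 took 3.23, 17.7 and 5.01% in the aged libraries and 2.17 to 4.85% in the young libraries. Igkv9-124 took 0.711, 0.469 and 9.69% in the aged libraries and 0.361 to 0.567% in the young libraries. Igkv5-39 was thus also the third most read segment of aged replicate 3. With 7 libraries, the filter on low counts and age as the only term, none of the 3 passed the edgeR test of read level (log2 fold change 1.44, 1.81 and 3.14, adjusted p = 0.265, 0.179 and 0.0817). Igkv9-124 passed it without aged replicate 1 (3.63, adjusted p = 0.0436) and without young replicate 2 (4.18, adjusted p = 0.0471), and with 7 libraries and no filter on low counts (3.11, adjusted p = 0.0366). Each of these values rested on the library that the segment led, and without it the log2 fold change was -0.15 for Igkv8-30, the opposite direction, 0.40 for Igkv5-39 and 0.62 for Igkv9-124. Since the segments were chosen by that library, its removal had to lower them, and these values are a description only. Igkv1-110 took 5.42 to 7.40%, Igkv1-117 6.04 to 7.56%, Igkv1-135 5.50 to 8.62% and Iglv1 6.21 to 7.06% in the young libraries. Igkv1-110 was high in aged libraries too, at 7.75, 6.36 and 3.52%, and was the second most read segment of aged replicates 1 and 2.

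**Figure D2:**
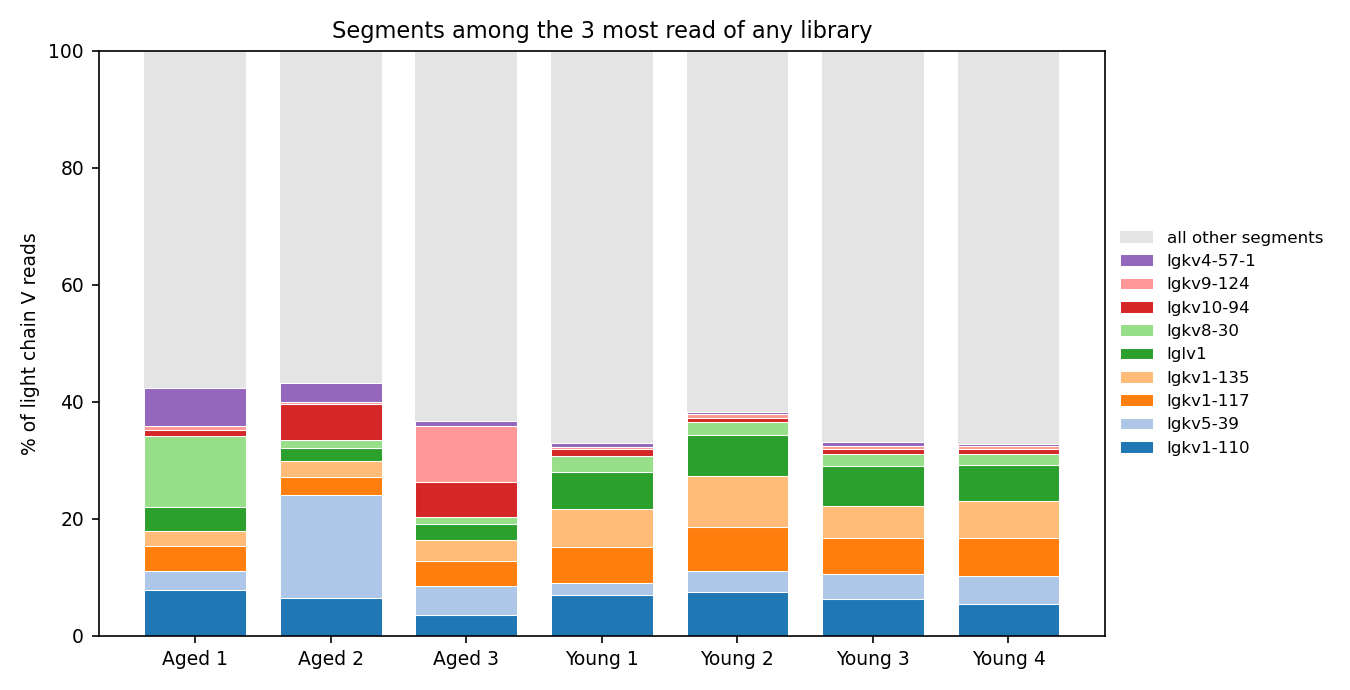
Share of light chain V reads, in percent, of the 9 segments that were among the 3 most read of any library, stacked for each library. Together they held 36.7 to 43.1% of the reads in aged and 32.7 to 38.2% in young libraries. The blocks of Igkv8-30, Igkv5-39 and Igkv9-124 are each largest in the aged library they led, and the young bars resemble each other.

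The likeness of the segment mixes was then measured with the Bray-Curtis distance, which is 0 for identical shares and 1 for mixes with no segment in common. Young libraries lay at a median of 0.159 from each other (0.143 to 0.200, 6 pairs). Aged libraries lay at a median of 0.341 from each other (0.286 to 0.368, 3 pairs), and aged from young libraries at 0.361 (0.314 to 0.408, 12 pairs). Every aged pair was farther apart than every young pair. Young replicate 2 lay at 0.153 to 0.200 from the other young libraries, which lay at 0.143 to 0.160 from each other. The pairs share libraries, so no test was made.

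Diversity was summarised in 3 ways. The effective number of segments, the exponential of the Shannon entropy, was 42.0, 39.7 and 47.5 in aged and 50.6, 42.6, 50.2 and 52.8 in young libraries. Its means were 43.1 ± 4.01 (SD, n = 3) and 49.0 ± 4.46 (SD, n = 4), and the groups overlapped through aged replicate 3 and young replicate 2 (exact two-sided permutation test, p = 0.114). The inverse Simpson number, which weights the leading segments more, was 25.4, 19.7 and 31.8 in aged and 34.3, 27.0, 34.3 and 36.4 in young libraries (exact two-sided permutation test, p = 0.114). With the leading segment of each library left out, the difference in inverse Simpson number between ages went from -7.34 to 0.129 and that in effective number from -6.0 to -1.39. Without aged replicate 2 the difference in inverse Simpson number was -4.36. Segments detected among 9067 reads, the smallest light chain total, were 94.6, 91.5 and 96.3 in aged and 98, 96.2, 97.0 and 96.5 in young libraries (exact two-sided permutation test, p = 0.114). This difference of -2.79 was -7.44 without overlap once pseudogenes were added (p = 0.0571, exact permutation test). With both the bound and the depth changed, to segments of at least 3 reads at full depth, it was -1.17 (p = 0.8, exact permutation test). Without aged replicate 2 it was -1.48. Without young replicate 2 the aged and young values of all 3 measures did not overlap, and the difference in effective number was -8.15 (exact permutation test, p = 0.1, the smallest that 3 against 3 allows). Without aged replicate 3 they did not overlap either, and that difference was -8.21 (exact permutation test, p = 0.133).

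Read levels were then tested segment by segment with edgeR, fitted over all 13904 genes. Of the 89 segments tested, 10 passed an adjusted p of 0.05, 8 higher and 2 lower in aged libraries. Among all genes tested 16.7% passed, 9.80% higher and 6.94% lower, so the count of called segments was not above that background. The median log2 fold change of the 89 segments was 0.42, against 0.02 over all genes, and 60 segments lay above 0 and 29 below. In CPM the ages did not overlap for 13 segments that were higher and 3 that were lower in aged libraries, against 29.9% of all genes in either direction.

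Leaving out a library moved this count. It was 36 of 87 segments without young replicate 2, 34 up and 2 down with age, with a median log2 fold change of 1.18; 14.5% of all genes passed in that fit. The 10 segments called with 7 libraries were among the 36. The count was 11 without aged replicate 1, 5 without aged replicate 2, young replicate 1 or young replicate 4, and 4 without aged replicate 3 or young replicate 3. The share of all genes called moved too, to 21.5% without aged replicate 1, 12.2% without aged replicate 2, 8.90% without aged replicate 3, and 9.58, 9.28 and 9.03% without young replicates 1, 3 and 4. Igkv6-25, Igkv3-2 and Igkv4-57-1 passed in all 7 such fits (highest adjusted p 0.036, 0.0263 and 0.0495), and Igkv7-33 in all but the one without aged replicate 3 (adjusted p = 0.0627). Igkv3-7 and Iglv2 passed in 3 of the 7 fits, Igkv10-94, Igkv3-4 and Igkv4-55 in 2, and Igkv3-12 in the one without young replicate 2 only, with adjusted p up to 0.118. The log2 fold changes of Igkv4-57-1, Igkv10-94, Igkv3-4 and Igkv3-12 were 3.99, 3.63, 3.32 and 2.72 without young replicate 2, and that of Igkv3-7 was 1.06 without aged replicate 2. With limma voom in place of edgeR, Iglv2, Igkv10-94 and Igkv3-4 did not pass (adjusted p = 0.0962, 0.0785 and 0.069).

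**Figure D3:**
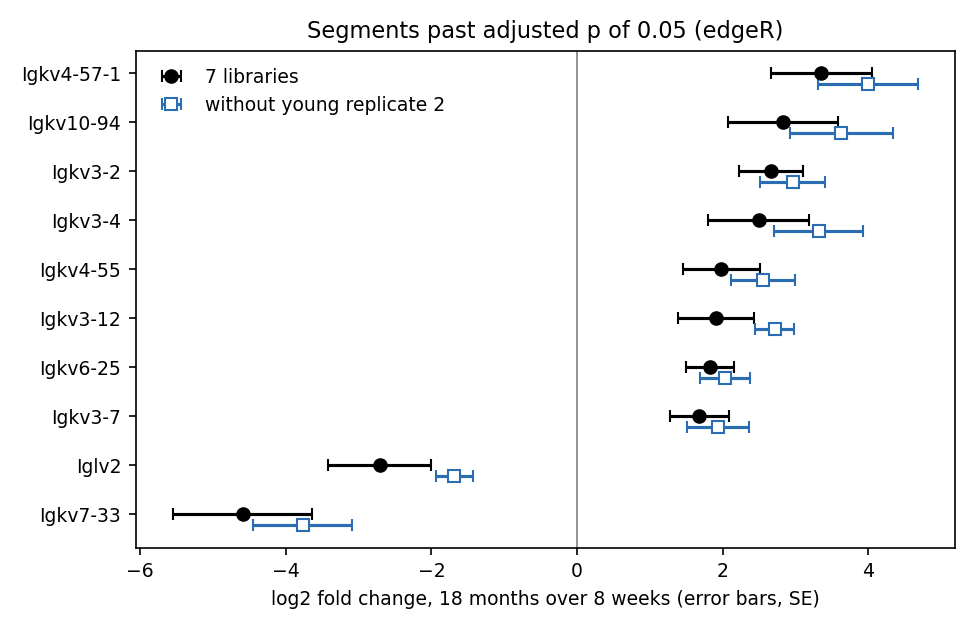
Log2 fold change of read level, 18 months over 8 weeks, for the 10 segments past an adjusted p of 0.05. Filled circles are the fit of 7 libraries, open squares the fit without young replicate 2, and bars are SE. All 10 kept their direction, and Igkv4-57-1 (3.35) and Igkv7-33 (-4.59) lie at the ends with 7 libraries.

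Igkv4-57-1, a segment in the middle of the kappa locus (chr6:69544359-69544907, minus strand), showed the highest log2 fold change. It was at 146, 104 and 20.4 CPM in aged and 4.81, 18.0, 8.13 and 4.08 CPM in young libraries. The lowest aged library lay just above the highest young library, and the log2 fold change was 3.35 ± 0.69 (SE, adjusted p = 0.015). Its share of light chain V reads was 6.56, 3.10 and 0.817% in aged and 0.368 to 0.649% in young libraries. The nearby Igkv4-55 (chr6:69607275-69607828, minus strand) was at 51.1, 81.6 and 63.3 CPM in aged and 5.77, 32.8, 7.42 and 19.9 CPM in young libraries (log2 fold change 1.98 ± 0.53, adjusted p = 0.0374). Its aged shares were nearly equal, 2.30, 2.44 and 2.53%, against 0.592 to 0.728% in 3 young libraries and 1.79% in young replicate 4. Over the Igkv4 family, which has 26 members, 2 of the 23 tested were called, both higher, close to the 9.80% of all genes called higher. Without young replicate 2, 7 of the 22 tested were called, all higher, against 9.11% of all genes called higher in that fit. The family's share was 13.5 to 18.9% in aged and 11.9 to 16.5% in young libraries.

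Igkv10-94 (chr6:68704508-68704978, minus strand) was at 21.8, 201 and 148 CPM in aged and 8.91, 39.4, 10.4 and 10.6 CPM in young libraries. The rise (log2 fold change 2.83 ± 0.76, adjusted p = 0.0373) lay in aged replicates 2 and 3, where the segment took 6.02 and 5.94% of light chain V reads. Aged replicate 1, at 0.978%, was within the young range of 0.832 to 1.12%. Its near copies Igkv10-95 (log2 fold change -1.22, adjusted p = 0.349) and Igkv10-96 (1.07, adjusted p = 0.0699) did not pass the test with 7 libraries. Igkv10-96 passed without young replicate 2 (1.57, adjusted p = 0.000572).

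The Igkv3 family was higher in aged libraries in several of its segments. Of its 9 segments 7 were tested, 4 rose (Igkv3-2, Igkv3-4, Igkv3-7 and Igkv3-12) and the 7 log2 fold changes ran from 0.88 to 2.66, with a median of 1.84; the share called higher among all genes was 9.80%. Igkv3-2 was at 29.0, 84.1 and 69.2 CPM in aged and 12, 14.9, 5.05 and 6.52 CPM in young libraries. The groups did not overlap and the log2 fold change was 2.66 ± 0.44 (SE, adjusted p = 0.00646). Igkv3-4 was at 15.6, 91.5 and 71.4 CPM in aged and 4.63, 24.1, 8.06 and 5.16 CPM in young libraries (2.49 ± 0.70, adjusted p = 0.0432), and aged replicate 1 was below young replicate 2. Igkv3-12 (1.91 ± 0.52, adjusted p = 0.0397) and Igkv3-7 (1.68 ± 0.41, adjusted p = 0.027) did not overlap between the ages.

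As a share of light chain V reads, the Igkv3 family took 5.0, 7.67 and 8.53% in aged and 3.79, 1.88, 2.15 and 2.57% in young libraries. The means were 7.06 ± 1.84% (SD, n = 3) and 2.60 ± 0.847% (SD, n = 4), and the groups did not overlap. Without young replicate 2, 6 of the 7 tested segments were called higher, where 9.11% of all genes were, which added Igkv3-5 (log2 fold change 2.63, adjusted p = 0.00491) and Igkv3-10 (1.79, adjusted p = 0.00348). Stretches of 50 bases are shared within the family, most in Igkv3-12, where 58.4% of them recur in another segment, and least among the called ones in Igkv3-2, with 21.3%.

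Igkv6-25 was the called segment with the smallest standard error. It was at 10.9, 23.9 and 27.8 CPM in aged and 4.72, 8.06, 6.0 and 4.59 CPM in young libraries, without overlap (log2 fold change 1.83 ± 0.33, adjusted p = 0.00871). All 8 tested segments of its family had log2 fold changes above 0, from 0.16 to 1.83, and Igkv6-25 alone was called with 7 libraries, 1 of 8 against the 9.80% of all genes called higher. Without young replicate 2, 5 of the 8 were called, all higher, against 9.11% of all genes in that fit.

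Igkv7-33, the only Igkv7 segment (chr6:70058632-70059199, minus strand), went the other way. Its counts were 8, 0 and 1 in aged and 52, 226, 46 and 50 in young libraries. It was close to undetected in the aged libraries, and the 0 in aged replicate 2 allows a share of up to 0.00902% of its light chain V reads. In the young libraries it took 0.290 to 0.574%. The log2 fold change was -4.59 ± 0.96 (SE, adjusted p = 0.0154), and the fall was also called without young replicate 2 (-3.77, adjusted p = 0.0124). Aged replicate 1 held 8 of the aged reads, and without it the fitted value was -6.89 (adjusted p = 0.0135), which with 1 aged read left depends on the prior count. Its transcript shares 0.633% of its stretches of 50 bases with another light chain V segment.

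Shares were compared next, since they set aside how many light chain reads a library held. Of the 52 segments with a mean share of at least 0.5%, 14 (26.9%) had aged and young shares that did not overlap, 4 higher and 10 lower in aged libraries. The same measure on heavy chain V segments gave 10 of 57 (17.5%), and the difference between these counts was not tested. Over all genes tested the ages did not overlap in CPM for 29.9%, which the 26.9% did not exceed. CPM over all genes and shares of light chain V reads are unlike measures, so this is a rough guide only. A library's light chain reads put a 95% Wilson interval of at most 0.424 to 1.04 percentage points around a segment's share. The segments just inside and just outside the bound had mean shares of 0.501 and 0.475%. Igkv4-57-1, Igkv3-4, Igkv3-12 and Igkv4-55 were the 4 with a higher share, 2.55-fold to 6.97-fold higher in the mean. Without aged replicate 1 the count was 24 of 53, and without any other single library it was 15 to 21. Fewer libraries make it easier for a segment's groups not to overlap, so nothing is read from this rise.

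The 10 segments with a lower share ran from Igkv4-68 to Igkv4-86. Igkv4-86 took 0.0275, 0.0541 and 0.386% in aged and 0.607, 2.12, 2.96 and 0.426% in young libraries, and its gap between the ages was narrow. Igkv14-126 took 0.137, 0.475 and 0.394% in aged and 2.64, 4.33, 1.49 and 2.14% in young libraries, a 7.89-fold lower mean in aged libraries. Igkv12-89 took 0.217 to 0.318% in aged and 0.536 to 1.67% in young libraries. The gap was wide for Igkv14-126, as it was for Iglv2. Igkv8-27 took 0.892, 1.02 and 0.926% in aged and 1.93, 2.83, 2.02 and 2.14% in young libraries, and Igkv4-91 and Igkv4-68 took 0.364 to 0.574% in aged and 0.590 to 1.03% in young libraries. With 7 libraries and the filter on low counts, none of these 6 kappa segments passed the edgeR test of read level (adjusted p = 0.0979 to 0.83). Igkv14-126 passed it without the filter (log2 fold change -2.84, adjusted p = 0.0461). Without young replicate 2, Igkv4-68 alone of the 6 passed, as higher in aged libraries (0.89, edgeR adjusted p = 0.0472), the opposite direction to its share. In that fit Igkv14-126 was at -1.15 (adjusted p = 0.139).

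The leading young segments Igkv1-135 and Igkv1-117 were among the 10. Igkv1-135 took 2.67, 2.65 and 3.57% in aged and 6.64, 8.62, 5.50 and 6.34% in young libraries. Igkv1-117 took 4.32, 3.16 and 4.25% in aged and 6.04, 7.56, 6.12 and 6.36% in young libraries. Igkv1-110, 96.8% identical to Igkv1-117 over the last 280 bases, overlapped between the ages, at 3.52 to 7.75% and 5.42 to 7.40%. The Igkv1 family took 12.5 to 15.8% in aged and 19.5 to 24.8% in young libraries. On the level scale Igkv1-117 was at 96.0, 106 and 106 CPM in aged and 47.9, 357, 76.7 and 70.6 CPM in young libraries, with a log2 fold change of -0.43 ± 0.64 (adjusted p = 0.685) that became 0.66 (adjusted p = 0.0416) without young replicate 2. That of Igkv1-110 went from 0.21 (edgeR adjusted p = 0.86) to 1.29 (adjusted p = 0.0306). In the fit without young replicate 2, 4 of the 7 Igkv1 segments tested were called higher and 0 lower, where 9.11% of all genes were called higher.

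**Figure D4:**
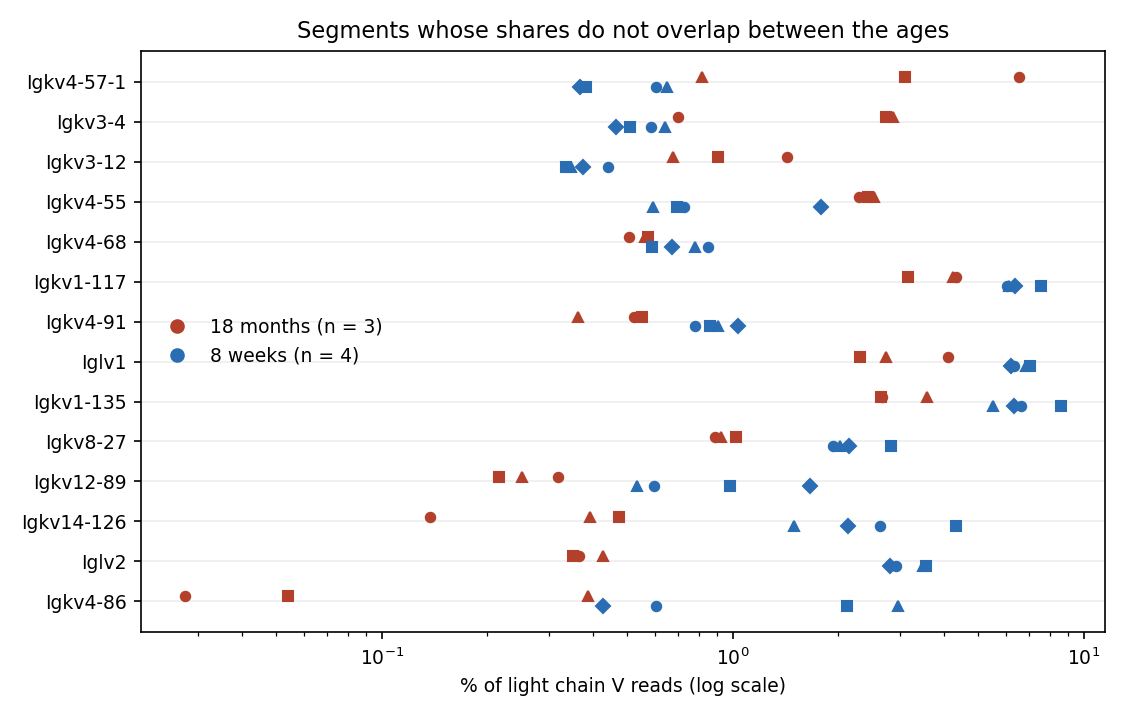
Share of light chain V reads, in percent on a log scale, of the 14 segments with a mean share of at least 0.5% whose aged and young libraries do not overlap. Points are libraries, red for 18 months (n = 3) and blue for 8 weeks (n = 4), with the replicate number as shape. The upper 4 rows are higher and the lower 10 rows lower in aged libraries, and Iglv2 (0.352 to 0.427% against 2.81 to 3.56%) has a wide gap.

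Kappa segments lie on both strands. A segment on the strand of the joining segments is joined by deleting the DNA between them, and one on the other strand by inverting it. Of the 100 kappa segments 38 were on the plus strand, that of Igkj1, and 62 on the minus strand. The plus strand segments lie in a near group, 13 segments within 1 Mb of Igkj1 that hold the Igkv3 family, and a far group, 24 segments over 2 Mb away that hold the 3 kappa segments leading in young libraries, with 1 segment between. This division was chosen after the values were seen, so it is given without a test.

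The far plus strand segments took 28.1, 24.5 and 21.4% of kappa reads in aged and 40.8, 48.8, 40.6 and 38.3% in young libraries. The near plus strand segments took 6.46, 9.60 and 11.4% in aged and 5.84, 2.89, 4.02 and 4.35% in young libraries. Neither group overlapped between the ages. With the leading segment of each library left out the far group took 23.8 to 32.2% in aged and 33.5 to 43.3% in young libraries, and the near group 7.40 to 12.7% and 3.20 to 6.33%, still without overlap. Of the 13 near segments 9 were Igkv3 segments, so the near group largely restates the result of the Igkv3 family. It was not examined without that family, and an effect of position or strand was not tested. The 5 minus strand segments over 2 Mb away went the opposite way to the far plus strand group, at 5.41, 9.16 and 19.6% in aged and 5.21, 3.29, 4.07 and 4.53% in young libraries, with a narrow gap between aged replicate 1 and young replicate 1. That group was carried by Igkv10-94 and Igkv9-124. Without both it took 3.69, 2.63 and 3.93% in aged and 3.44, 1.76, 2.52 and 3.09% in young libraries, and the ages overlapped. Of the 13 far plus strand segments with a mean share of at least 0.5%, 11 had a lower mean share in aged libraries, and of the 5 near ones 5 had a higher one. Of these 5 near segments 3 were Igkv3 segments. Minus strand segments took 64.7, 65.5 and 66.8% of kappa reads in aged and 52.9, 47.9, 55.0 and 56.9% in young libraries. With the leading segment of each library left out this became 57.8 to 63.1% in aged and 53.1 to 61.3% in young libraries, which overlapped. All 3 leading segments of the aged libraries were on the minus strand and the kappa leaders of the young libraries on the plus strand, so leaving them out had to narrow this difference.

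**Figure D5:**
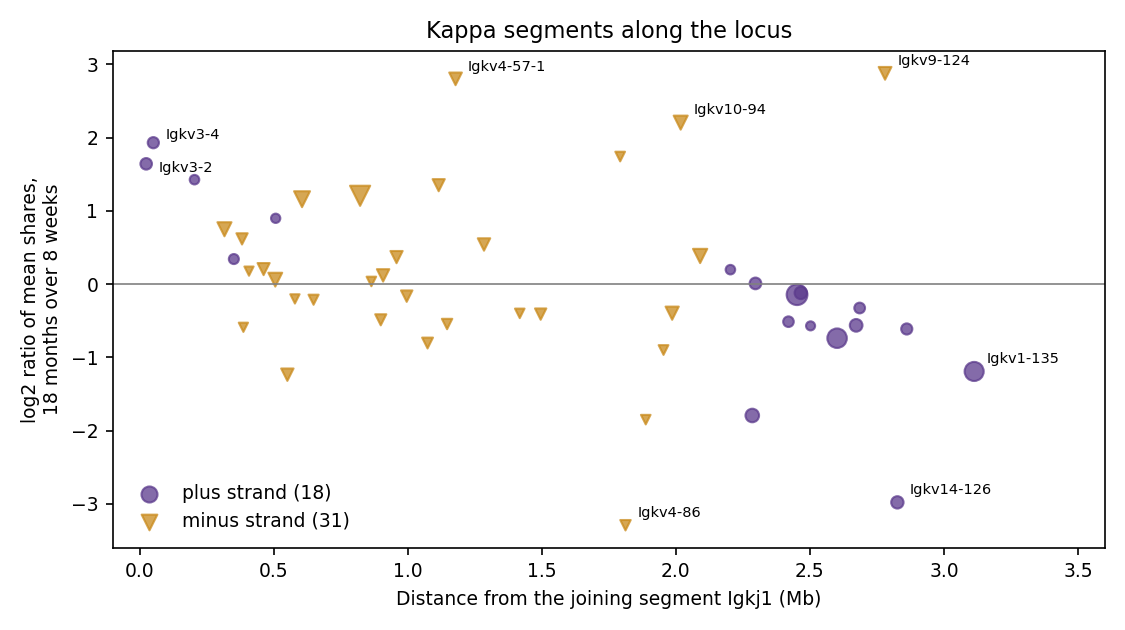
Log2 ratio of mean shares, 18 months over 8 weeks, against the distance from the joining segment Igkj1 in Mb, for the 49 kappa segments with a mean share of at least 0.5%. Circles are the 18 plus strand and triangles the 31 minus strand segments, and the area of a symbol grows with mean share. The plus strand segments nearest to Igkj1 lie above 0 and most of those over 2 Mb away below it, while minus strand segments lie on both sides.

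Genes of receptor rearrangement were read beside the segments. RAG1 and RAG2 cut the DNA and terminal transferase (Dntt) adds bases at joints in developing B cells and developing T cells alike, while the Vpreb1, Vpreb2 and Igll1 products form the surrogate light chain of developing B cells. With Vpreb3, listed beside them, the summed level was 4.89 to 21.3 CPM in aged and 46.0 to 121 CPM in young libraries, without overlap. Of the 7 genes 4 were tested, Rag1, Rag2, Dntt and Vpreb3, and 3 were lower in aged libraries, against 6.94% of all genes called lower. The surrogate light chain genes Vpreb1, Vpreb2 and Igll1 were not tested. Rag1 was at 0.0874, 7.35 and 0.749 CPM in aged and 22.7, 15.4, 77.0 and 30.8 CPM in young libraries (log2 fold change -3.78 ± 1.01, adjusted p = 0.0376). Vpreb3 (-1.69 ± 0.47, adjusted p = 0.0415) and Dntt (-1.52 ± 0.32, adjusted p = 0.0163) also fell, and Rag2 did not pass the test (-3.16 ± 1.05, adjusted p = 0.0739). The same 3 genes were called without young replicate 2 (edgeR adjusted p = 0.0184 to 0.0437). Their part in the segment shares was not tested.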

How the data were processed

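RNA-sequencing libraries, 3 from aged and 4 from young mice, were analysed. Per the labels and layout of the tables, the authors deposited raw read counts per Ensembl gene, counted in union mode without strand. The submitters' processing notes name the mm10 build. The aligner and annotation are not given in the sources used here. Reads assigned to no single gene, 13.1 to 20.9% of a library, were left out. The authors also deposited a table of signal values (counts over a size factor), of which gene symbols and gene types were used. Its columns of the authors' log2 fold change, test score, and p-value and adjusted p-value were not used.

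Counts were tested by the quasi-likelihood method of edgeR 4.0.16 (R 4.3.3) after TMM scaling and filterByExpr by age, with Benjamini-Hochberg adjustment over 13904 genes. A standard error is the fold change on the log2 scale divided by the square root of F. CPM are on the TMM scale. Shares are percentages of the light chain V reads of a library, with Wilson intervals. Single values were compared with exact two-sided permutation tests (scipy 1.17.1). A count of 3, the limit of detection, is 0.21 to 0.302 CPM. Coordinates and sequences are those of GENCODE M21 on GRCm38. The fit and the diversity measures were tested on simulated data.

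The segments named are the most read of each library, the 5 with the highest mean share at each age, up to 8 risen and 8 fallen called segments without overlap in CPM, the 5 largest changes of share each way among segments of at least 0.5% without overlap, and the lambda segments. Others were chosen after their values were seen. Members and lists were chosen with earlier results of these data known. Replicates differed beyond sampling noise (chi-square per degree of freedom 10.7 to 131 over light chain V segments).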

Additional observations from a re-analysis of the deposited data

Results flagged for a closer look

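In 4 measures 1 young library lay far from the other 3, judged by its gap to the nearest over the range of the group, against Dixon's 95% critical value for 4 libraries. Chance gives such a gap in about 1 in 20 groups, and many segments were examined.

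For total light chain V reads the ratio was 0.883, from young replicate 2 at 4727 CPM beside 792 to 1253 CPM. For the lambda share it was 0.887, from young replicate 3 at 12.2% beside 11.5%, where the 95% Wilson intervals of replicates 1 (10.9 to 12.2%) and 3 (11.7 to 12.7%) overlap. For the share of Igkv4-55 it was 0.887, from young replicate 4 at 1.79% beside 0.592 to 0.728%. For the share of Igkv7-33 it was 0.841, from young replicate 1 at 0.574% (52 reads) beside 0.290 to 0.335%.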

How the results depend on the processing

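The count of called segments, 10 of 89 in the main analysis, was 16 of 103 with DESeq2 and 17 of 103 without a filter on low counts. It was 4 with the replicate number as a block and 4 to 36 with 1 library left out. All genes called were 2327 of 13904 in the main analysis, 2910 of 25469 with DESeq2 and 2221 of 25469 without the filter. With DESeq2 or without the filter, unlike in the main analysis, the share called was higher among segments than among all genes. Those 25469 genes include the genes of low count that the filter removes. The filter kept 13904 of them, and 89 of the 103 segments. The background is therefore not like that of the main analysis, and the difference was not tested. The count of called segments stayed at 9 to 12 with limma voom (7 of the 10 calls kept), RLE factors, library size only, immunoglobulin, mitochondrial and haemoglobin genes left out of the scaling, at least 10 counts in every library, and a required change of 1 on the log2 scale. Of all genes 1835 to 2392 passed in these fits, which was not counted for the required change. Under the replicate block 292 of all genes passed, Igkv5-39, not called otherwise, passed (1.68, adjusted p = 0.036), and 7 of the 10 calls were lost, among them Igkv4-57-1, Igkv3-2 and Igkv7-33 (adjusted p = 0.105, 0.0703 and 0.0819). The labels do not say that a number marks a shared batch. The deviations of same-numbered aged and young libraries correlated at -0.107, -0.318 and -0.145, and those of the other pairs at -0.267 to 0.264. With so few libraries these values cannot decide whether a batch was shared. The count of shares without overlap, 14, was 25 with a bound of 0.1%, 9 with a bound of 1%, and 15 to 24 with 1 library left out, where fewer libraries make non-overlap easier. The difference in inverse Simpson number reversed to 0.129 with the leading segment of each library left out. The log2 fold change of Igkv1-117 reversed to 0.66 without young replicate 2 and was -0.71 at its lowest with 1 library left out. The lambda share and the leading share kept their directions in every alternative, the lambda difference at -10.8 to -6.92 percentage points. The leading share overlapped between ages, at 0.467 percentage points, only with the leading segments left out. The alternatives for strand, distance, the Igkv3 family, single segments, and constant genes or length in the lambda share were chosen after seeing the data. Segments with few reads are limited by depth: 14 were not tested.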

Other observations

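The ratio of light chain V reads to light chain constant reads, examined after its values were seen, was 0.614, 0.415 and 0.372 in aged and 0.623, 0.770, 0.753 and 0.679 in young libraries. The groups did not overlap, although aged replicate 1 was close to young replicate 1. Reads on the 27 light chain V pseudogenes were few, 39 to 65 in aged and 29 to 118 in young libraries.

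Neutrophil markers were not even between libraries. Their sum was 4382, 1622 and 598 CPM in aged and 225 to 797 CPM in young libraries, and 2 of 5, S100a8 and S100a9, were higher in aged libraries. Of 5 monocyte or macrophage markers 3 were lower in aged libraries (median log2 fold change -0.56). Among all genes 9.80% were called higher and 6.94% lower. The counts were 1 of 5 neutrophil and 3 of 5 monocyte or macrophage markers without young replicate 2. The summed level of 4 erythroid genes was 9777 to 118900 CPM in aged and 9519 to 86566 CPM in young libraries, and none passed the test (edgeR, adjusted p from 0.589 to 0.985). Aged replicate 1, the library with the most neutrophil reads, was also the one led by Igkv8-30, and their relation was not tested.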
